A study of Salmo salar with 51 samples.

Results

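The signals of a pair of Notch pathway genes were followed through the development of Atlantic salmon. They come from probe C071R035, which the study names lfng (lunatic fringe), and probe C199R060, which it names HES6. These 2 probes of the 43689 on the array were read in whole individuals at all 17 time points between 2 and 89 days post fertilization (dpf), with 3 individuals per time point. Which values led to the choice is not recorded. The pair was treated as chosen by its measured changes among 2, 5, 10 and 15 dpf on these same arrays, so that levels and differences at these time points are described without a test, and tests of later time points hold only as far as the choice did not use them. All fish came from eggs of the McConnell (Mowi) strain, were untreated and were raised in fresh water. The study places blastulation at 2 dpf, gastrulation at 5 dpf, somitogenesis at 10 dpf, growth of yolk sac vessels at 15 and 20 dpf, caudal rays at 25, 30 and 35 dpf, alevins at 41, 47 and 53 dpf, emergence from gravel at 59 dpf, fry at 65 and 71 dpf and parr at 77, 83 and 89 dpf. It derived these subperiods from age and temperature and gives them as those expected in the wild. Hatching fell between the samples of 35 and 41 dpf.

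Notch receptors are activated by Delta and Jagged ligands on a neighbouring cell, cut by proteases, and act in the nucleus on genes of the HES and HEY families, which encode basic helix-loop-helix repressors. Lunatic fringe is a glycosyltransferase of the Golgi that extends the sugars on the receptor and so changes its response to each ligand, and in mouse and chick its cyclic expression is part of the clock that spaces the somites. HES6 is an unusual member of the HES family, which in mouse opposes HES1 and favours neuronal and muscle differentiation. The pathway is best known in vertebrate embryos for somite formation and for keeping neural progenitors undifferentiated.

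Each individual was labelled with Cy5 and hybridized to 1 array with a common Cy3-labelled pool of all time points, to which 2 dpf contributed less material. The dyes were not swapped, and values are log2 ratios of Cy5 to Cy3 after loess normalization within each array, so that 0 is the level of the pool. The 51 arrays lay on 14 slides, and array medians in Cy5 ran from 124.5 to 601. Averaged over 3 arrays it was 153 at 2 dpf, 307 at 5 dpf and 468 at 10 dpf. A probe went into the tests if it gave 500 or more in Cy5, without a flag, in all 3 individuals of some time point, as 20964 did, both followed probes among them. Neither probe was flagged on any array. The Cy3 signal of the pool at the lfng probe lay between 4305 and 9610.5, and at the HES6 probe between 1323.5 and 3210. RNA came from whole organisms, in which fewer cells of a type and less RNA per cell cannot be told apart. In the limma tests below, p-values rest on the spread between individuals of the same time point. This spread was estimated for each probe over all 51 arrays together, not from the 3 individuals of a time point alone.

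At 2 dpf, lfng was at its highest level of the 17 time points under each of the 4 scalings of whole arrays, although its unscaled Cy5 signals were higher at 10 dpf. The 3 individuals of this day had log2 ratios of 2.67, 2.51 and 2.57, and the mean was 2.58 ± 0.08 (SD, n = 3). By loess no individual of another time point came near these values, and the next highest mean was 0.66 ± 0.32 (SD, n = 3) at 20 dpf. With each array centred on its median the gap was smaller, with 1.49 ± 0.09 at 2 dpf and 0.99 ± 0.07 at 10 dpf (SD, n = 3 each).

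The individuals at 5 dpf had the lowest mean by loess, although the ranges of 5 and 59 dpf overlapped. Their log2 ratios were -1.58, -1.67 and -1.89, a mean of -1.71 ± 0.16, compared to 2.58 ± 0.08 at 2 dpf (SD, n = 3 each), and the difference was -4.29. In this comparison limma called 39.8% of all probes tested, where a call needs a Benjamini-Hochberg adjusted p under 0.05 together with a 2-fold difference or more. The lower level at 5 dpf held under every scaling, but when each array was centred on its median the difference was -2.85 and 5 dpf ranked 11 among the 17 levels, and in the Cy5 channel by itself it ranked 15.

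At 10 dpf the lfng signal was higher again. The log2 ratios of 0.57, 0.62 and 0.54 lay far above those at 5 dpf, by 2.29 between the means, and 20.3% of all probes were called between these days. Cy5 signals at the probe were 37500, 20842 and 38419 at 10 dpf, against 5030, 2434 and 2413 at 5 dpf. The 10 dpf individuals were the least variable of the series, with an SD of 0.04.

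Between 10 and 2 dpf, where 51.1% of all probes were called, the net difference of lfng was -2.00 by loess and -2.08 in the Cy5 channel by itself, but -0.50 after median centring, under which the median of all probes was 0.69, against 0.01 by loess. The Cy5 signals of 9087, 12440 and 8572.5 at 2 dpf were below those at 10 dpf, the reverse of the order in scaled values. According to the methods, RNA of the 2, 5 and 10 dpf individuals was scarce, and extractions and labelling were repeated for them. The part of either in the result was not tested.

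HES6 had a different course, with a single high day at 10 dpf. Its 3 individuals had log2 ratios of 2.38, 2.21 and 2.06, a mean of 2.21 ± 0.16 (SD, n = 3), with Cy5 signals of 48046.5, 20167 and 36943. No individual at any other time point had a log2 ratio above 0.74, and 10 dpf was the highest time point under all scalings.

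Before somitogenesis the HES6 probe was dim. The Cy5 signals at 5 dpf were 272, 78 and 165, and those at 2 dpf were 66, 115.5 and 139.5, all under the minimum of 500. The log2 ratios were -3.89, -4.47 and -3.39 at 5 dpf and -3.79, -3.43 and -2.62 at 2 dpf, so that the ranges overlapped, and no fold is given between these days. These signals have only an upper bound.

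The 10 dpf level of HES6 was therefore higher by at least 35.4-fold than that at 5 dpf, and by at least 15.7-fold than that at 2 dpf. Such bounds set the mean Cy5 signal of the bright time point, after loess and quantile scaling, over the mean per-array value of the lowest measurable signal or of the probe itself, whichever is higher, and dye bias was not removed from them.

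At 15 dpf HES6 was lower again. The log2 ratios were -0.39, -0.998 and -0.44 at 15 dpf, against 2.38, 2.21 and 2.06 at 10 dpf, and the difference of the means was -2.82. The lfng probe moved little over the same days, with log2 ratios of -0.19, 0.34 and 0.44 at 15 dpf against 0.57, 0.62 and 0.54 at 10 dpf, a difference of -0.38 by loess, -0.89 after median centring and -0.82 in the Cy5 channel by itself. Between these days 12.0% of all probes were called. The step to 20 dpf was small for both, at 0.47 for lfng and 0.50 for HES6 over 15 dpf, with 1.43% of all probes called. Neighbouring comparisons share the arrays of the day between them and were not set against each other.

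**Figure D1:**
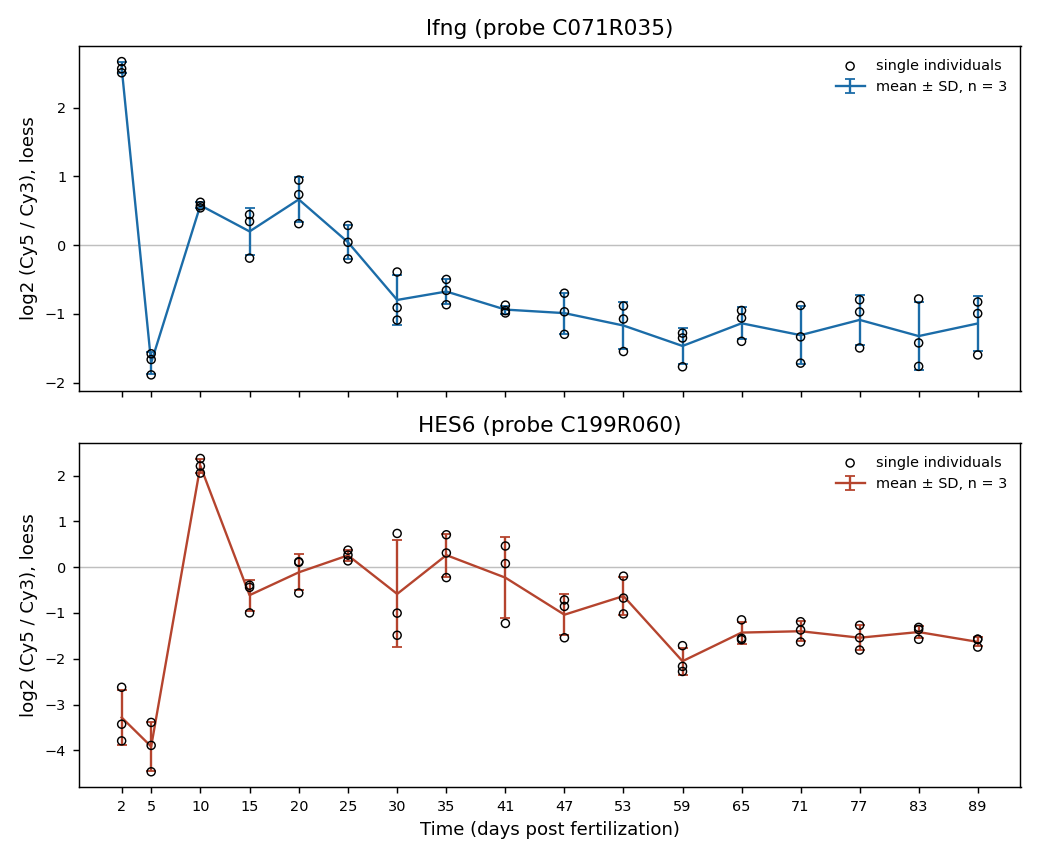
Log2 ratio of Cy5 to Cy3 (vertical axis) of lfng and HES6 against time in days post fertilization (horizontal axis). Open circles are single individuals and lines with bars are means with SD (n = 3). The lfng probe was highest at 2 dpf, with a mean of 2.58, and the HES6 probe at 10 dpf, with a mean of 2.21.

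From 20 dpf on the changes were slower, and these time points share no array with the early ones. The individuals at 20 dpf had lfng log2 ratios of 0.95, 0.74 and 0.31, and those at 25 dpf of 0.04, 0.29 and -0.20. At 30 dpf all 3 individuals were below these, with -1.09, -0.91 and -0.39, and from then on no individual was above -0.39. The means from 35 dpf to 89 dpf lay between -1.47 at 59 dpf and -0.68 at 35 dpf.

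At 89 dpf, lfng log2 ratios were -1.60, -0.995 and -0.83, compared to 0.95, 0.74 and 0.31 at 20 dpf. The groups did not overlap and lfng fell by 1.80 on the log2 scale (SE 0.27, limma adjusted p = 8.29e-07), where 25.8% of all probes were called and 11.2% fell. The F test of limma across the 13 time points from 20 to 89 dpf passed as well (adjusted p = 1.44e-07), as it did for 39.9% of all probes.

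HES6 varied more between individuals than lfng at some of these time points, such as 30 and 41 dpf, but less at others, such as 83 and 89 dpf. At 20 dpf the HES6 log2 ratios were 0.11, 0.12 and -0.56, and at 25 dpf 0.27, 0.14 and 0.37. At 30 dpf 1 individual had 0.74 while the other two had -1.49 and -1.003, the widest spread of the series with an SD of 1.17. The individuals at 41 dpf also lay apart, at 0.46, 0.08 and -1.23.

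From 59 dpf on, HES6 was low in all individuals. The log2 ratios at 59 dpf were -2.17, -1.71 and -2.28, with no overlap with the -0.20, -1.02 and -0.67 at 53 dpf. The difference of -1.42 (SE 0.39) nevertheless missed the threshold (limma adjusted p = 0.501), in a comparison where 0.0433% of all probes were called. From 65 dpf to 89 dpf the means stayed between -1.63 and -1.40. On 5 of the arrays after 15 dpf, the Cy5 signal of the probe was under 500, so that single values here are less certain than those of lfng, which was at or above 500 on all 51 arrays.

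At 89 dpf, HES6 log2 ratios were -1.58, -1.75 and -1.57, compared to 0.11, 0.12 and -0.56 at 20 dpf. All 3 individuals at 89 dpf were lower, and HES6 fell by 1.52 on the log2 scale (SE 0.39, limma adjusted p = 0.00222). The F test from 20 to 89 dpf had an adjusted p of 3.59e-06 in limma. Without replicate 2 of each time point, the difference was -1.35 and no longer passed (limma adjusted p = 0.062), and under the alternative settings with a limma fit its adjusted p lay between 0.00182 and 0.062. With the methods' t-test on the same 6 arrays, the adjusted p was 0.0765 for lfng and 0.114 for HES6, so that neither passed.

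None of the 12 comparisons of consecutive time points from 25 vs. 20 dpf on was called for either probe by limma. Of these 24 values, 6 had an unadjusted p under 0.05 in limma and 2 in the methods' t-test. Few probes of the array were called in them either, 0.65% in 25 vs. 20 dpf, 0.0478% in 30 vs. 25 dpf, 0.927% in 35 vs. 30 dpf, 0.11% in 41 vs. 35 dpf, 0.00956% in 47 vs. 41 dpf, 0.0191% in 53 vs. 47 dpf, 0.0% in 65 vs. 59 dpf, 0.00478% each in 71 vs. 65 dpf and 77 vs. 71 dpf, 0.56% in 83 vs. 77 dpf and 0.943% in 89 vs. 83 dpf. The largest difference of lfng was the -0.84 of 30 vs. 25 dpf (SE 0.27, limma adjusted p = 0.323), although its individuals did not overlap.

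Set in order of their means, most neighbouring levels could not be separated. For lfng the order from the highest was 2, 20, 10, 15, 25, 35, 30, 41, 47, 77, 65, 89, 53, 71, 83, 59 and 5 dpf. The ranges of neighbours were apart at 3 places of this order only, 2 over 20 dpf, 10 over 15 dpf and 25 over 35 dpf. For HES6 the order was 10, 35, 25, 20, 41, 30, 15, 53, 47, 71, 83, 65, 77, 89, 59, 2 and 5 dpf. The ranges were apart for 10 over 35 dpf, 25 over 20 dpf and 59 over 2 dpf and overlapped at all other places.

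Among the 4502 probes whose names were known here, 3 more were named HES6 and none more lfng. Names came only from the study's lists of probes that changed on these same arrays, so that early differences of any probe named below are not independent evidence. The higher levels of the HES6 probes at 10 dpf were part of why they are known by name. Where a probe below was listed for the step compared, its adjusted p repeats that selection and lends the step no support. Which of the duplicated salmon gene copies each probe reads was not analysed here, and a probe may bind transcripts of more than 1 copy.

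Probe C091R148 had the same single high day. Its log2 ratios were 2.13, 1.26 and 1.43 at 10 dpf, against -2.46, -1.65 and -1.56 at 5 dpf, where all signals were under 500, and the 10 dpf signal exceeded that bound by at least 8.39-fold. At 15 dpf the log2 ratios were -1.11, -0.60 and -0.43, a difference of -2.32 from 10 dpf. It reached 500 on all 3 arrays at 10 dpf alone, and so passed the signal filter only through its high day, and the study listed it for both of these steps, so that these values are given without a test. Its profile over the 17 time points correlated with that of C199R060 at a Pearson r of 0.874, given as a description over means that share the reference pool.

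The HES6 probes C110R053 and C265R088 were higher at 10 dpf than at 5 dpf and were not called lower at 15 dpf. The study listed both for the step from 5 to 10 dpf, so that their adjusted p-values there repeat this selection. Probe C110R053 had log2 ratios of -0.64, -0.94 and -0.86 at 10 dpf, against -3.37, -3.48 and -3.50 at 5 dpf, a difference of 2.63 (SE 0.35, limma adjusted p = 1.57e-07). At 15 dpf its individuals were spread over -1.06, -0.16 and 0.11, and its mean was highest at 20 dpf, at 0.85 ± 0.27 (SD, n = 3). Probe C265R088 had -0.35, -0.76 and -0.70 at 10 dpf, against -2.57, -2.95 and -3.54 at 5 dpf, where 1 of 3 signals was at or above 500, a difference of 2.42 (SE 0.37, limma adjusted p = 2.49e-06), and was highest at 25 dpf, at 1.05 ± 0.13 (SD, n = 3). Its difference of 1.05 between 15 and 10 dpf was barely past the threshold (SE 0.37, limma adjusted p = 0.0486), and it was lost without any 1 of the replicates, at adjusted p of 0.0856 to 0.251 in limma. These profiles correlated with each other at 0.958, and with that of C199R060 at 0.756 and 0.784, over the same 17 means.

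The probes were also compared through the within-array difference of their log2 ratios. Between 15 and 10 dpf, the change of C091R148 differed from that of C110R053 by -2.76 on the log2 scale, and from that of C265R088 by -3.37. The values of 15 and 10 dpf did not overlap in either case, which is a description, since C091R148 was listed for this step. C110R053 and C265R088 differed by -0.61 (exact two-sided permutation test, p = 0.7, where 3 against 3 individuals allow no p below 0.1). At 89 dpf, C110R053 had fallen relative to 20 dpf by 1.88 (SE 0.35, limma adjusted p = 3.99e-05) and C265R088 by 2.13 (SE 0.37, limma adjusted p = 1.37e-05). C091R148 was under 500 at 89 dpf, where 1 array was flagged and left out. At 20 dpf its Cy5 signals were 403, 363.5 and 1567, of which only 1 was at or above 500. It was called lower at 89 dpf, with a bound of 1.22-fold (limma adjusted p = 0.0132), but with both days mostly dim this fall is uncertain. Its difference of -1.26 was lost without replicate 2, at -0.80, and with the slide as a block, at -1.15.

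**Figure D2:**
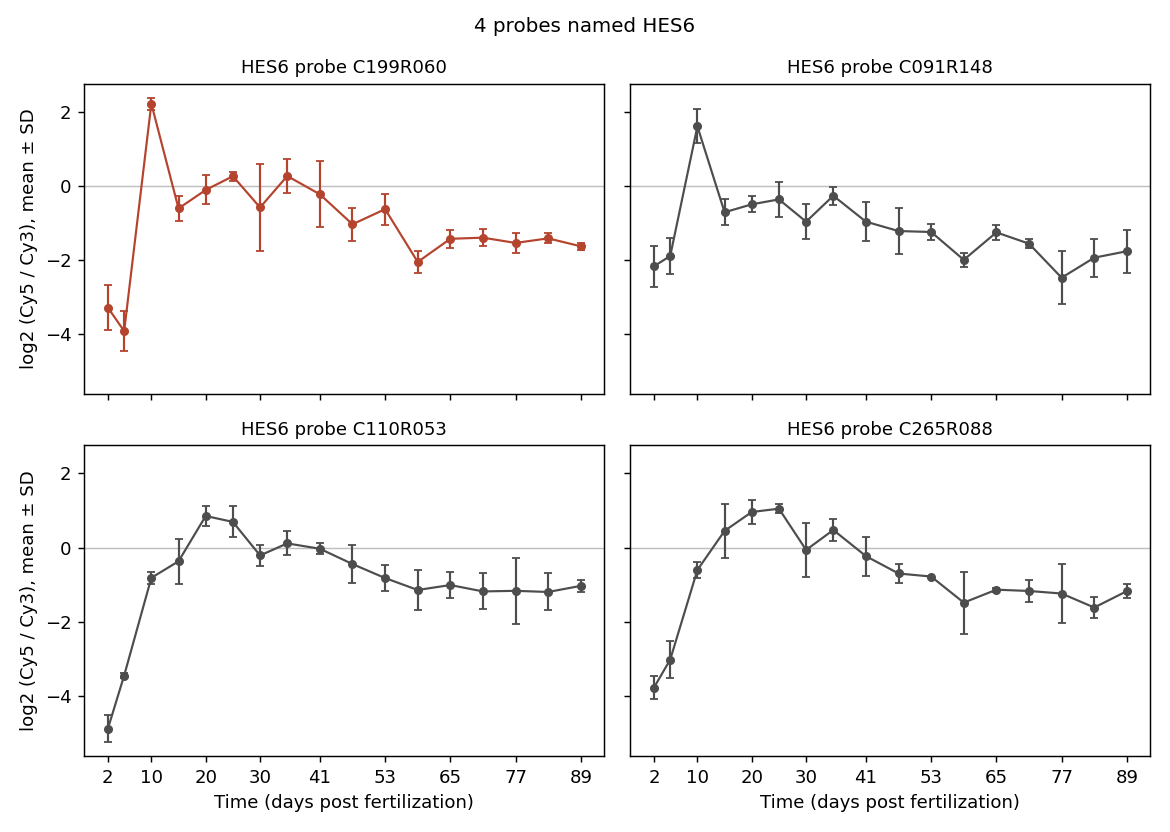
Mean log2 ratio of Cy5 to Cy3 (vertical axis) of the 4 probes named HES6 against time in days post fertilization (horizontal axis), with SD over unflagged individuals (n = 3, or 2 where a spot was flagged). Probes C199R060 and C091R148 were highest at 10 dpf, with means of 2.21 and 1.60, whereas C110R053 was highest at 20 dpf and C265R088 at 25 dpf.

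The rest of the HES family was next compared with HES6. The list of HES and HEY targets held 8 probes besides C199R060, which were 3 of HES6, 4 of HES5 and 1 of HES1, and all passed the signal filter. Between 10 and 5 dpf all 8 were higher, with a median difference of 3.36, or 2.52 with the dim probes at their bounds, compared to -0.02 for all probes tested, of which 11.9% were higher. This count restates in part how the probes came to be named. Of the 20 pathway probes, 2 passed the signal filter through 1 time point only, 10 dpf, HES6 C091R148 and the ligand jag1a.

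HES1, a repressor that Notch induces in many tissues, was at or above 500 on all 3 arrays of 10 dpf and on 2 of 3 of 5 dpf. Probe C152R061 had log2 ratios of 1.21, 0.87 and 0.82 at 10 dpf, against -3.10, -3.58 and -3.34 at 5 dpf, and differed by 4.31 (SE 0.35, limma adjusted p = 1.31e-12). Like C199R060 it was highest at 10 dpf, but its lower mean at 15 dpf, a difference of -0.97, did not pass the test (limma adjusted p = 0.054).

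HES5, which acts in neural progenitors, was under 500 at 5 dpf for all 4 probes, so that bounds apply. The 10 dpf levels were higher by at least 2.89-fold for Hes5 C012R079, 14-fold for C135R038, 2.33-fold for C179R004 and 1.82-fold for Hes5 C200R082. Unlike C199R060, none of them was lower at 15 dpf than at 10 dpf. The difference was 1.51 for C012R079 (SE 0.33, limma adjusted p = 0.00136) and 2.89 for C200R082 (SE 0.57, limma adjusted p = 0.000328), and both had individuals that did not overlap. For C135R038 and C179R004 the differences of 1.06 and 1.21 did not pass (limma adjusted p = 0.259 and 0.0663), although their individuals did not overlap either. With the slide as a block, no probe of the pathway lists was called higher between 15 and 10 dpf, and C012R079 was also lost without replicate 2, at 1.44 (limma adjusted p = 0.068).

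The 4 HES5 probes also had the lowest 89 vs. 20 dpf differences of the 20 pathway probes. C200R082 had log2 ratios of -2.37, -4.09 and -2.88 at 89 dpf, against 2.34, 1.73 and 2.05 at 20 dpf, and was lower by at least 9.35-fold (limma adjusted p = 2.24e-09). The study listed C200R082 for the step from 20 to 25 dpf too, so that its 20 dpf arrays had a part in its naming and this p is not independent of it. C135R038 had -2.86, -3.07 and -2.89 at 89 dpf, where 2 of 3 signals were at or above 500, against 1.43, 1.44 and 1.04 at 20 dpf, a difference of -4.25 (SE 0.61, limma adjusted p = 5.83e-07). Of the 8 probes, 7 were called lower at 89 dpf than at 20 dpf and the HES1 probe did not pass (-0.13, limma adjusted p = 0.82), where 11.2% of all probes were lower. The median difference was -2.70, or -2.34 with dim probes at their bounds, compared to -0.14 for all probes. The 8 probes were named from lists of changed probes, so that all probes are not a like background for them.

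Upstream of these repressors, few ligands and receptors were found by name. The ligand probe dlb (deltaB, C101R057) had log2 ratios of -0.22, 0.10 and 0.24 at 10 dpf, against -2.93, -2.72 and -2.31 at 5 dpf, a difference of 2.69 (SE 0.28, limma adjusted p = 6.62e-10). Its Cy5 signals were 5069, 3767 and 8000.5 at 10 dpf, against 511, 165 and 347 at 5 dpf, of which 1 was at or above 500, so that the size of this difference is uncertain. The ligand probe jag1a (C187R017) was dimmer, with Cy5 signals of 609, 533 and 948 at 10 dpf and all signals under 500 at 5 dpf, so that its 10 dpf level exceeded the bound by at least 1.07-fold. No test is given for it, since it passed the signal filter only through 10 dpf. Neither ligand was called in the comparisons of 5 with 2 dpf, 15 with 10 dpf and 89 with 20 dpf.

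The receptor probe (notch homolog 3, C261R121) was higher at 5 dpf than at 2 dpf. It was under 500 at 2 dpf, and the 5 dpf level was higher by at least 2.30-fold (limma adjusted p = 4.24e-06), with Cy5 signals of 2752, 2232.5 and 2402 at 5 dpf against 72, 132 and 112 at 2 dpf. It was higher again at 10 dpf than at 5 dpf, by 1.19 (SE 0.40, limma adjusted p = 0.0249), a call that was lost in the Cy5 channel by itself, at 0.82, without replicate 2, at 1.40, and without replicate 3, at 1.16. Between 5 and 2 dpf the receptor and lfng, whose enzyme modifies it, differed in opposite directions.

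The other pathway lists did not share a direction. Among proteases, adam10 (C074R165), which sheds the extracellular part of the receptor, differed by -1.71 between 5 and 2 dpf (SE 0.36, limma adjusted p = 0.000161) and by 1.34 between 15 and 10 dpf (SE 0.36, limma adjusted p = 0.00954). The second of these was lost without replicate 1, at 1.09, without replicate 2, at 1.37, and with the slide as a block, at 1.23, and after median centring the differences of adam10 were -0.998 and 0.93. The other probe of this list was called in none of the early comparisons. Among ubiquitin ligases and related factors, Itch (C173R056), which marks Notch for degradation in mouse, differed by -2.60 between 5 and 2 dpf (SE 0.33, limma adjusted p = 1.47e-08) and by -2.03 between 10 and 5 dpf (SE 0.33, limma adjusted p = 5.92e-06). DTX3L (C033R159), a deltex relative, differed by 2.33 between 10 and 5 dpf (SE 0.42, limma adjusted p = 4.93e-05) and by -1.69 between 15 and 10 dpf (SE 0.42, limma adjusted p = 0.00477). Besides HES6 C091R148, for which no test is given, DTX3L was the only pathway probe called lower at 15 dpf. This call of DTX3L was lost without replicate 1, at -1.43, and without replicate 2, at -1.70. Both the call at 10 dpf and that at 15 dpf were lost with the slide as a block, at 1.27 and -1.20. DTX3L was also called higher at 5 than at 2 dpf (limma adjusted p = 0.0364), with signals under 500 at 2 dpf and no bound. That call was lost without replicate 2, at 0.76, without replicate 3, at 0.88, without the signal filter and with limma on the 6 arrays. One of the probes of Nle1 (C171R146), the fish counterpart of the fly gene Notchless, was under 500 at 2 dpf, and its 5 dpf level was higher by at least 4.22-fold (limma adjusted p = 1.39e-06).

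In the nuclear group, SNW1 (C244R108), a coactivator that binds the Notch complex, was higher at 5 than at 2 dpf by 2.03 (SE 0.26, limma adjusted p = 1.65e-08). The corepressor Tle4 (C123R001) was lower at 5 than at 2 dpf by -1.87 (SE 0.25, limma adjusted p = 4.11e-08), as lfng was, but by less than 2-fold after median centring, at -0.85. The Sbno1 probe (C098R065), a homologue of strawberry notch, was lower at 10 than at 5 dpf by -1.01 (SE 0.34, limma adjusted p = 0.0244), and this was lost without any 1 of the replicates, at -1.09 to -0.85, and with the slide as a block, at -0.60.

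Over the 7 pathway lists with their 20 probes besides lfng and C199R060, 6 were higher and 4 lower between 5 and 2 dpf, with a median difference of 0.14 and of -0.10 for all probes, of which 20.0% were higher and 19.8% lower. One of the 4 lower calls, of Hes5 C200R082, was of signals under 500 on both days. Median centring made 2 lower calls, and the share of higher calls over the array was then 82.6%, against 50.2% by loess. Between 10 and 5 dpf, 12 were higher and 3 lower, where 11.9% of all probes were higher and 8.47% lower. The median was 1.90, or 1.03 with dim probes at their bounds, and -0.02 for all probes. The 20 probes were named from lists of changed probes, so that shares over all probes are not a like background for their counts. Counts at 10 dpf also include HES6 C091R148 and jag1a, which passed the signal filter only through that day. Between 10 and 2 dpf, 13 were higher and 3 lower, with a median of 2.90, or 0.89 with dim probes at their bounds, where 26.7% of all probes were higher and 24.4% lower. Between 15 and 10 dpf, 4 were higher and 2 lower, where 9.31% of all probes were higher and 2.64% lower. Here 77.9% of all calls were higher by loess, 41.2% after median centring and 55.0% in the Cy5 channel by itself.

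Between 89 and 20 dpf, none of the 20 was higher and 11 were lower, with a median of -1.12, or -0.75 with dim probes at their bounds, where 14.6% of all probes were higher and 11.2% lower. Here too the probes were named from lists of changed probes, so that shares over all probes are not a like background for these late counts or for the F test below. With the slide as a block 8 were lower, and with the methods' t-test after adjustment 2. The receptor probe was among the 11, at -1.035 (SE 0.40, limma adjusted p = 0.0452). Its call was lost with the slide as a block, in the Cy5 channel by itself, at -0.75, and with limma on the 6 arrays. It was also lost without replicate 2, at -0.87, without replicate 3, at -1.15, and with the looser signal filters. Its own F test from 20 to 89 dpf did not pass (limma adjusted p = 0.0738). The F test from 20 to 89 dpf passed for 12 of the 20 and for 7 of the 8 HES and HEY probes, as it did for 39.9% of all probes. In the 12 consecutive comparisons from 25 vs. 20 dpf on, none of the 240 values of the lists was called by limma, while 26 had an unadjusted p under 0.05 in limma and 12 in the methods' t-test.

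**Figure D3:**
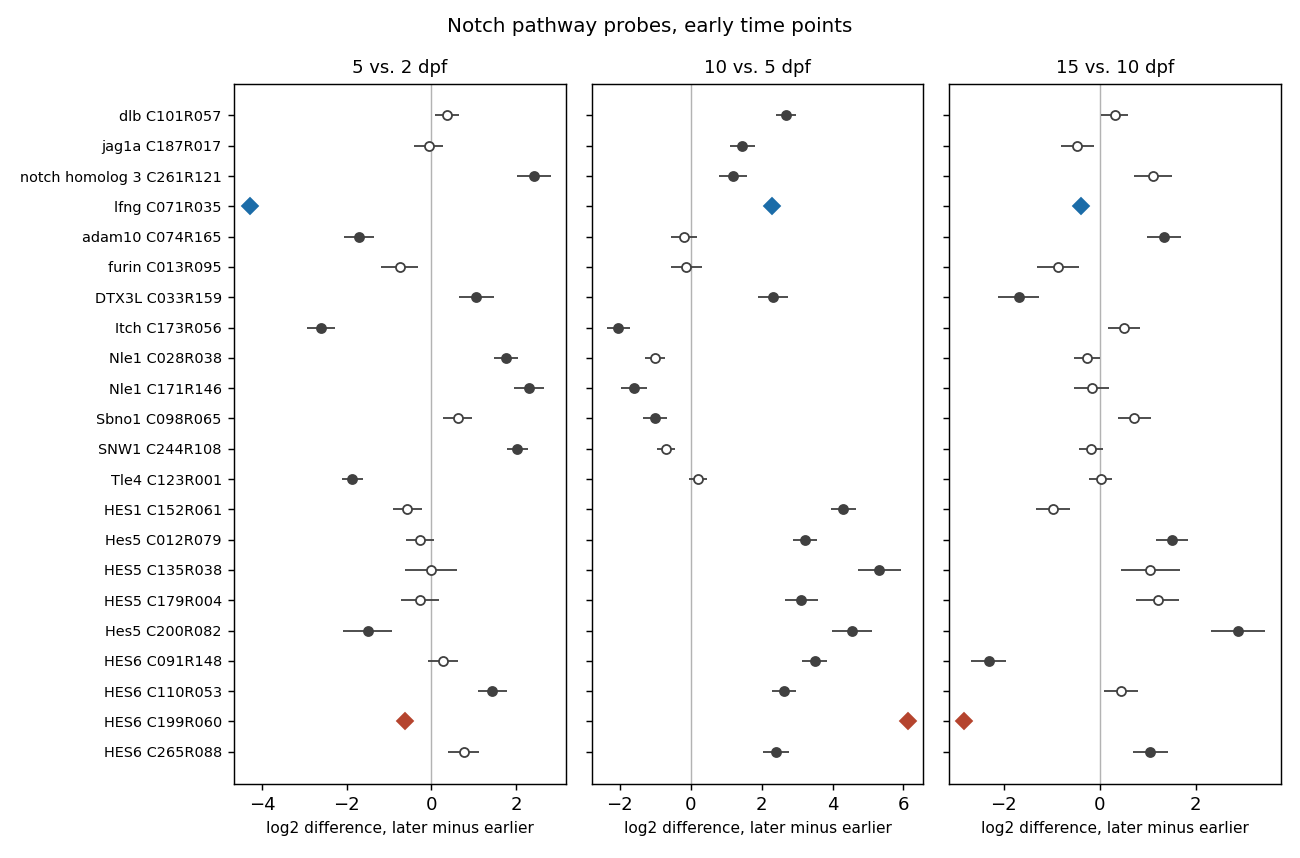
Log2 difference, later minus earlier time point (horizontal axis), of each Notch pathway probe (rows) in the 3 early comparisons. Diamonds are lfng and HES6 C199R060, which carry no test. Circles are the other probes with SE, filled where called by limma. Values are fitted, also where signals of a day were under 500, and there they do not measure the size of a change. All 8 HES1, HES5 and HES6 circles lay higher at 10 dpf than at 5 dpf, and those of HES6 C091R148 and HES1 lay lower at 15 dpf than at 10 dpf. HES6 C091R148 and jag1a passed the signal filter only through 10 dpf, so that their filled circles are not read as tests.

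**Figure D4:**
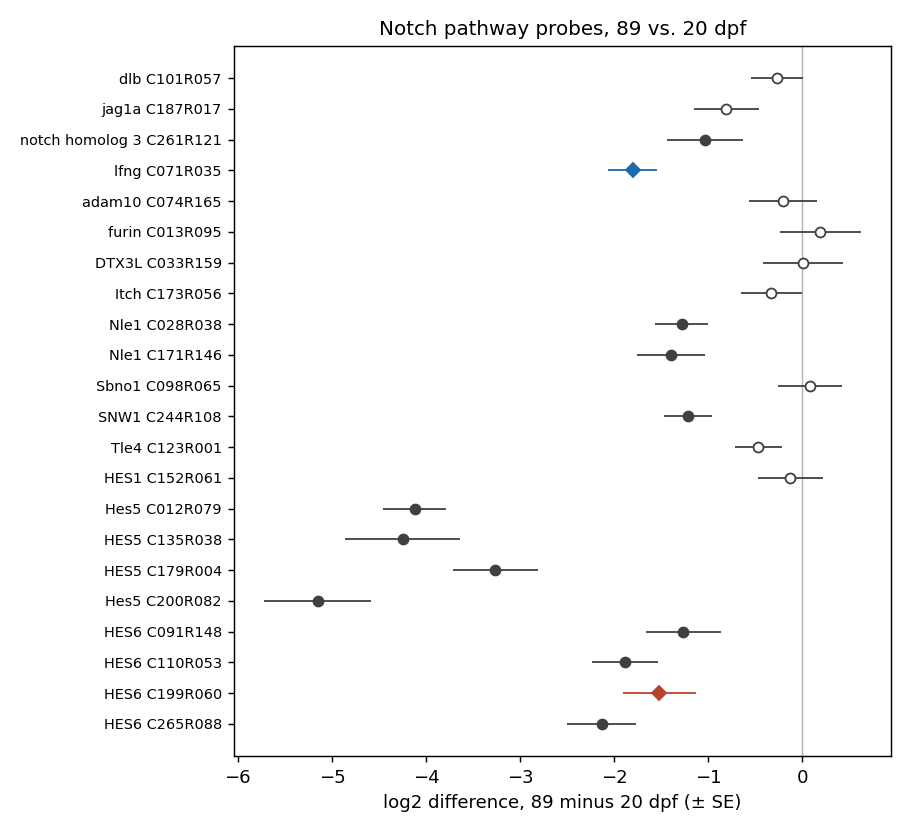
Log2 difference of 89 minus 20 dpf (horizontal axis) of the same probes (rows) with SE. Filled symbols were called by limma. lfng (-1.80) and HES6 C199R060 (-1.52), drawn as diamonds, fell as did the 4 HES5 probes, at -5.15 to -3.26, of which 3 were under 500 at 89 dpf.

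Genes of the tissues in which the pathway acts were set beside the followed probes. MYF5, which commits cells to muscle, had its highest mean at 10 dpf in both of its probes, as HES6 C199R060 did. The 10 dpf level of probe C257R118 was higher than that of 5 dpf by at least 6.95-fold (limma adjusted p = 6.27e-08), and C064R027, with 1 of 3 signals at or above 500 at 5 dpf, was higher by 2.59 (SE 0.38, limma adjusted p = 1e-06). At 15 dpf they were lower than at 10 dpf, by -1.28 (SE 0.43, limma adjusted p = 0.0377) and -1.55 (SE 0.38, limma adjusted p = 0.00353). Both calls at 15 dpf were lost without replicate 3, at -0.90 and -1.51, and that of C257R118 also without replicate 2, at -1.48, and with the slide as a block, at -1.51. Of the 9 probes of the somite and muscle list, 2 were higher and 2 lower between 10 and 5 dpf, where 11.9% of all probes were higher and 8.47% lower. The 2 lower calls were of Mef2d C024R112 and MEF2A C133R079. Both were lost after median centring, in the Cy5 channel by itself, without replicate 2, without replicate 3 and with the slide as a block. Between 15 and 10 dpf, 5 were higher and 2 lower, where 9.31% of all probes were higher and 2.64% lower. These probes too were named from lists of changed probes, so that shares over all probes are not a like background. Of the 5, the study listed DES C104R120, DES C148R033, Mef2a C212R112 and MEF2C C218R152 for this same step. The other was MEF2A C133R079. Its call and that of MEF2C were lost after median centring and in the Cy5 channel by itself. They were also lost without replicate 1, without replicate 3 and with the slide as a block. The 5 included desmin (DES C148R033), a filament of differentiated muscle, at 2.85 (SE 0.37, limma adjusted p = 2.55e-07), and the muscle factor Mef2a (C212R112) at 1.995 (SE 0.40, limma adjusted p = 0.000368). Its relative Mef2d (C024R112) was lower at 5 dpf than at 2 dpf, by -1.99 (SE 0.33, limma adjusted p = 3.04e-06), and a Des probe (C058R127) was called on signals under 500 on both of these days.

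In the neural list, 4 of 5 probes passed the signal filter. Between 5 and 2 dpf, 1 was higher and 3 lower, where 20.0% of all probes were higher and 19.8% lower. The 1 higher call was of sox2 C141R027, on signals under 500 on both days. It was lost with a floor of 50, at 0.44, without replicate 1, at 0.41, and without replicate 3. The slide as a block and limma on the 6 arrays of these days lost it as well. Between 10 and 5 dpf, 1 was higher and 0 lower, where 11.9% of all probes were higher and 8.47% lower, and the list had a median of -0.12. The probes of this list were also named from lists of changed probes, so that shares over all probes are not a like background. The progenitor factor sox3 (C132R131) was lower at 5 dpf than at 2 dpf by -2.42 (SE 0.23, limma adjusted p = 2.29e-11), the same direction as lfng, and by -0.98 after median centring. The progenitor factor sox2 (C141R027) was under 500 at 5 dpf, and its 10 dpf level was higher by at least 4.72-fold (limma adjusted p = 0.000149), the same direction as HES6. It was the only probe of this list called between these days, and the sox3 probes C132R131 and C253R111 differed by -0.38 and -0.22. The neurod1 probe (C252R135), of a neuronal factor, was called lower between 5 and 2 dpf and higher between 15 and 10 dpf on signals that were all under 500.

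Markers of other tissues in whole individuals differed in Cy5 signal between days, without scaling for the brightness of the arrays. The mean array median in Cy5 was 153 at 2 dpf, 307 at 5 dpf, 468 at 10 dpf and 322 at 89 dpf. The 2 zona pellucida probes of the egg had summed Cy5 signals of 5429.5 to 10183 at 2 dpf, 6211.5 to 13152.5 at 5 dpf and 2169 to 4969 at 10 dpf, and from 15 dpf on both were under 500 on at least 1 array. Those of the 6 skeletal muscle probes were 1509 to 2185.5 at 2 dpf, 5643 to 9939 at 10 dpf and 43789.5 to 88404.5 at 89 dpf. None of 12 red cell probes and none of 4 lens probes was at 500 on all arrays of 2 dpf. The higher muscle sums at 10 than at 2 dpf, the higher egg range at 5 dpf and these counts ran with the array median. The lower egg sums at 10 dpf and the higher muscle sums at 89 dpf ran against it. The part of array brightness in these signals was not tested. The part of tissue composition in the levels of lfng and HES6 was not tested.

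The named probes whose 17 means ran most like those of lfng were COPB1 (C120R124), a coat protein of Golgi vesicles, at a Pearson r of 0.915, the ubiquitin ligase PJA2 (C039R129) at 0.908, gkap1 (C197R047), an anchor of a kinase, at 0.907, the homeobox gene dlx2a (C179R150) at 0.895 and ANAPC1 (C259R103), a part of the cell cycle ligase APC, at 0.892. All 5 were highest at 2 dpf. For HES6 they were the sulfotransferase sult1st2 (C058R109) at 0.90, the forkhead factor Foxc1 (C041R114) at 0.898, the transporter SLC22A7 (C180R117) at 0.89, the actin-binding protein DBN1 (C160R088) at 0.885 and MRPS5 (C221R001) of the mitochondrial ribosome at 0.874, of which all but MRPS5 were highest at 10 dpf. These are the highest of 3926 named probes, and the means share the reference pool and the arrays.

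Between lfng and HES6 themselves, r over the 17 means was 0.154. Over the 14 means from 15 to 89 dpf, a range taken after the values had been seen, it was 0.698. The 4 HES5 probes had r of 0.169 to 0.346 with lfng over all 17 means and of 0.923 to 0.945 over these 14. Over the same 14 means, r with lfng was 0.901 for HES6 C265R088, 0.841 for C110R053, 0.728 for C091R148 and 0.588 for HES1. How many of all named probes reach such values was not counted.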

How the data were processed

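RNA of whole individuals was measured on two-colour oligonucleotide arrays, 51 in all. Per the file headers and the methods, the authors scanned the slides, quantified them with Imagene and deposited for each spot a background-corrected median signal intensity in both channels, with a flag. The method of that correction is not given in the sources used here, and other corrections were not run. The authors also deposited log2 ratios, made in GeneSpring with signals raised to at least 1, Lowess normalization and each probe centred on its median over all samples. Their Additional files of changed probes served here to name 4502 probes and to tell for which steps a probe had been listed. The values in their comparison columns were not used.

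Signals below 1 were set to 1, and log2 ratios were taken through the within-array loess of limma (version 3.58.1, R version 4.3.3), with a weight of 0 for flagged spots, 2.35% of probe spots. Flagged values were left out of the fit. A probe was kept if all 3 individuals of some time point gave 500 or more in Cy5 without a flag, 20964 of 43689, of which between 20686 and 20937 could be tested in a comparison. One limma fit (lmFit, eBayes) with a mean per time point gave all later minus earlier comparisons. A probe was called at a Benjamini-Hochberg adjusted p under 0.05, over all probes, with a fold change of at least 2. The fit was tested on simulated data. Arrays have no sequencing depth, and 3 individuals per time point limit the precision.

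Samples were grouped by the time point in the labels, and the slide was read from the names of the scanner files. Replicate numbers were not used to pair the samples. The followed probes, the gene lists and the tests were chosen with earlier results of these data known. Named are both followed probes, all ligand, receptor, HES and HEY probes, the other HES6 probes, the 2 largest called changes of each other list in each early comparison and the 5 named probes most like each followed probe. Alternatives were median centring, the Cy5 channel alone, the deposited log2 values, flagged spots kept, a floor of 50, other filters, each replicate left out, slide or replicate block, 6 arrays alone, the methods' thresholds and the methods' t-test. Probes are named by position code, and oligonucleotide sequences and genome positions were not used here.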

Additional observations from a re-analysis of the deposited data

How the results depend on the processing

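Of 94 calls of single list probes, none changed direction under any alternative run, and 176 of their 1316 re-evaluations missed the threshold, 53 of them with the methods' t-test after adjustment, 23 with the slide as a block and 14 after median centring. With median centring, lfng differed by -2.85 between 5 and 2 dpf, by -0.89 between 15 and 10 dpf and by -0.50 between 10 and 2 dpf, and HES6 by 6.61 between 10 and 5 dpf, by -3.40 between 15 and 10 dpf and by 6.45 between 10 and 2 dpf. Under median centring the median of all probes was 0.43 at 5 relative to 2 dpf (loess -0.10), -0.25 at 15 relative to 10 dpf (loess 0.09) and -0.24 at 89 relative to 20 dpf (loess -0.14), and the share of calls that were higher between 10 and 2 dpf was 77.7%, against 52.3% by loess. It left 2 pathway probes lower between 5 and 2 dpf and 2 higher between 15 and 10 dpf. In the Cy5 channel by itself, lfng differed by -4.50, 2.42, -0.82 and -2.08 (5 vs. 2, 10 vs. 5, 15 vs. 10 and 10 vs. 2 dpf) and HES6 by 6.68 and 6.23 (10 vs. 5 and 10 vs. 2 dpf). The deposited values gave -4.54 and 2.47 for lfng (5 vs. 2 and 10 vs. 5 dpf), and flagged spots kept gave -4.73, 2.54 and -2.20 (5 vs. 2, 10 vs. 5 and 10 vs. 2 dpf). The cause of these shifts was not tested.

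With the slide as a block, lfng differed by 2.49 between 10 and 5 dpf and by -1.91 between 10 and 2 dpf, HES6 by -3.22 between 15 and 10 dpf, and 1 pathway probe was lower between 10 and 5 dpf and 0 higher and 1 lower between 15 and 10 dpf. On the slide that held arrays of both 5 and 2 dpf, the difference of lfng was -4.34. The methods' t-test after adjustment lost the differences between 89 and 20 dpf (lfng -1.80, HES6 -1.52; adjusted p = 0.0765 and 0.114 over all probes), and HES6 missed its unadjusted limit too. It called 1 pathway probe lower between 10 and 5 dpf, 0 in either direction between 15 and 10 dpf, 8 higher between 10 and 2 dpf (7 at its unadjusted p, against 13 by limma) and 2 lower between 89 and 20 dpf. Leaving out each replicate in turn gave 89 vs. 20 dpf differences of -2.14 to -1.44 for lfng and -1.78 to -1.35 for HES6, 1 to 3 pathway probes lower between 10 and 5 dpf, and 1 to 4 higher and 1 to 3 lower between 15 and 10 dpf.

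Over all probes tested, deviations of arrays with the same replicate number were hardly correlated (median r 0.02 over 408 pairs, and -0.01 over 816 with other numbers). For lfng, however, replicate 1 had the lowest log2 ratio of the 3 individuals at every time point from 30 to 89 dpf. The HES6 signals under 500 after 15 dpf were also all of replicate 1. The cause was not tested. With the replicate block the 89 vs. 20 dpf differences stayed at -1.80 for lfng and -1.52 for HES6 and no call was lost. HES6 signals at 2 and 5 dpf were under the detection minimum, so that the fitted values above against these days do not measure the size of the difference, for which the bounds stand. No group holds over 3 individuals, and single outlying individuals were not tested for.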
